A study of Mus musculus with 12 samples.

Results

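The genes described here are 8 small leucine-rich proteoglycans, Ogn, Aspn, Dcn, Lum, Bgn, Fmod, Omd and Prelp, together with Dmp1, 9 of the 32285 genes counted. They were chosen by measured values, as the family of Ogn and Dmp1, which were among the genes with the largest differences between Mif KO and control cells in these same data, so the KO against control values in line cells and in macrophages are given as a description, with no test. Small leucine-rich proteoglycans are secreted proteins of the extracellular matrix that carry leucine-rich repeats and, in several members, sugar chains of the chondroitin, dermatan or keratan sulfate kind. They bind collagen fibrils and set fibril width and spacing, and several of them bind TGF-beta or signal through receptors on nearby cells. Dmp1 is an acidic phosphoprotein of bone and dentin, best known from osteocytes, and Ogn, Omd and Aspn are also known from bone and cartilage matrix.

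The samples were single mouse cells of SCC35, a line from a study of melanoma rejection, profiled with the 10x 5′ kit. The groups were 2 control lines (SCC35 Mif KO control 15 and SCC35 Mif KO control 18) and 2 knockout lines (SCC35 Mif KO 19 and SCC35 Mif KO 24). Mif encodes a secreted cytokine. Each line had a library of its own with hashtag samples of days 0, 6, 10 and 16. Besides, 2 mixed libraries held tumours of days 6, 10 and 16, the first of lines 15, 18 and 19 and the second of lines 18 and 24. Line 18 had its day 16 tumour in the first and its day 6 and day 10 tumours in the second. The second mixed library thus held no control tumour of day 16. The labels do not say what the day 0 cells are, whether a line is 1 clone or which mice were used, and 3 tumours of the second mixed library are named WT in the hashtag sheet with no further account. Line is nested in group, each single-line library holds 1 line, and so library and line cannot be told apart there. P-values measure the spread between tumours of these 4 lines.

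There were 21 control, 21 KO and 3 WT hashtag samples with 224 to 4578 cells each, in libraries of 151385933 to 239699029 UMIs (unique molecular identifiers, each 1 counted RNA molecule). Of 159660 distinct cell barcodes, 15834 (9.92%) occurred in more than 1 library. The median depth per cell was lowest in the line 24 library, at 3072 UMIs, against 4823 to 9121.5 in the others, and that library also held most hashtag doublets (30.9% of its cells, against 17.9% to 25.8%). The line cells, 58084 cells in 42 samples, were the clusters without a cell type name and with little Ptprc. They were not identified by melanocytic markers, whose 10 genes summed to 14.2 CPM there (each gene's share of the counts of its class and sample, scaled to 1e6), 13.3 of it Mitf, with Tyr at 0. Mif itself separated the groups in line cells, with 1782 to 3113 CPM in control samples and 42.6 to 729 CPM in KO samples. Fibroblast-like cells (2095 cells, 33 tumours), macrophage-like cells (14291 cells, 35 tumours) and T cell-like cells (6447 cells, 33 tumours) were named from markers and are called fibroblasts, macrophages and T cells.

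Aspn, Omd and Ogn lie next to each other in the same direction on mouse chromosome 13 (GRCm38; chr13:49544443-49567565, chr13:49582462-49592822 and chr13:49608046-49624501), with 14896 bases between Aspn and Omd and 15223 between Omd and Ogn. Dcn and Lum are neighbours on chromosome 10 (chr10:97479609-97518143 and chr10:97565128-97572703, 46984 bases apart). Prelp (chr1:133910304-133921414) and Fmod (chr1:134037254-134048277) lie on chromosome 1, Bgn on the X chromosome (chrX:73483602-73495933) and Dmp1 on chromosome 5 (chr5:104202613-104214102). All are protein-coding. The 110 bases before the start site, from RefSeq on GRCm38.p6, are shown for the 3 neighbours and for Dmp1, because their day courses are set side by side. Capitals mark TEAD (GGAATG) and RUNX (ACCACA, the reverse of TGTGGT) matches.
Ogn, chr13:49607905-49608014, plus strand: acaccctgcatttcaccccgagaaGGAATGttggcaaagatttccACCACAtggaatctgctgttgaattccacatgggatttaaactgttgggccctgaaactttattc
Omd, chr13:49582352-49582461, plus strand: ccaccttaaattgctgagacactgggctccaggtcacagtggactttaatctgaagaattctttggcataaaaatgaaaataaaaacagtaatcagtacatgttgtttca
Aspn, chr13:49544333-49544442, plus strand: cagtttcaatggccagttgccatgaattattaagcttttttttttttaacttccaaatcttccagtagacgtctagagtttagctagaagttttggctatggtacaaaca
Dmp1, second listed start, chr5:104202507-104202616, plus strand: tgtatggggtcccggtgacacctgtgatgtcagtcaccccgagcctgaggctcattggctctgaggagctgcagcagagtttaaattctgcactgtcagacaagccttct
5 motifs were searched on both strands over the 250 bases before each listed start. They were TATAAA (in 12.4% of 32851 promoters), TGTGGT (RUNX, 14.0%), TGANTCA (AP-1, 6.75%), GGAATG (TEAD, 12.6%) and ACAATG (SOX, 10.7%). Of the 9 genes, 7 had a promoter entry. Ogn held a TEAD match at position -86 and a RUNX match at -65 from its start site, and TATAAA matches at -229 and -227, which overlap. Aspn held TATAAA matches at -207 and -178, and Dmp1 held a RUNX match at -164 of the start shown and a SOX match at -202 of its other start. Omd, Bgn, Fmod and Prelp held none of the 5 in this window. A match is a description of letters and not a site of binding.

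Levels of the genes differed by cell class. Dcn (decorin), Lum (lumican) and Bgn (biglycan), the widely made collagen-binding members, were at 3954, 844 and 3505 CPM in fibroblasts when the tumours of days 6 to 16 were summed. In line cells they were at 4.11, 1.18 and 16.4 CPM, against 13.2, 2.94 and 14.2 CPM in macrophages. Dcn and Lum in line cells were therefore below the macrophage level and are not read as expression there, and Bgn was near it. Ogn (osteoglycin), Omd (osteomodulin) and Dmp1 were higher in line cells, at 69.3, 3.83 and 6.47 CPM, than in fibroblasts, at 23.3, 1.19 and 1.07 CPM. In macrophages these 3 genes were at 29.8, 1.03 and 0.91 CPM, and in T cells at 60.4, 1.49 and 1.49 CPM. Ogn in T cells was near its line cell level only in these sums, which pool libraries of unlike make-up. Within each library it was lower in T cells than in tumour line cells. It was at 193 against 255 CPM in the line 24 library, 36.9 against 81.9 in line 19 and 7.53 against 48.2 in line 18. In the line 15 library it was at 0 against 14.3 CPM, and in the mixed libraries at 6.88 against 61.8 and 18.6 against 84.1. Aspn (asporin), which binds collagen and calcium, was at 36.6 CPM in line cells and 43.4 in fibroblasts, against 4.56 in macrophages. Prelp, which binds collagen and heparan sulfate, was at 42.5 CPM in fibroblasts and 4.33 in line cells. Fmod (fibromodulin) was at 1.88 CPM in fibroblasts and 0.02 in line cells. The clusters had been made without the 9 genes.

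**Figure D1:**
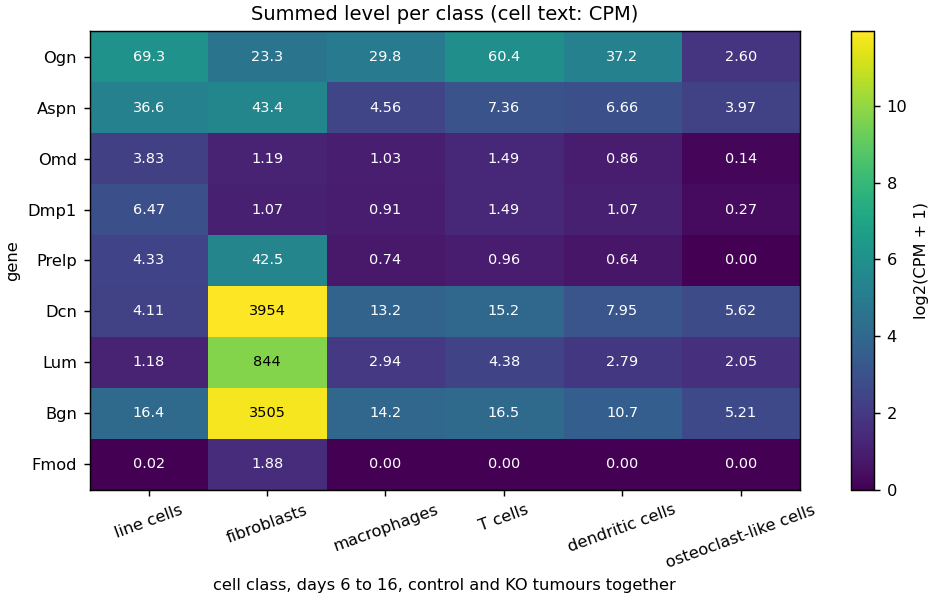
Summed level of the 9 genes (vertical) in 6 cell classes (horizontal), control and KO tumours of days 6 to 16 together. Colour is log2(CPM + 1) and the text in each cell is the CPM: Dcn, Lum and Bgn are highest in fibroblasts, and Omd and Dmp1 in line cells.

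Ogn levels in line cells spanned a wide range between the lines. Over all days the mean was 428 ± 472 CPM in line 24 (SD, n = 10), 126 ± 119 in line 19 (n = 11), 56.3 ± 40.9 in line 18 (n = 10) and 19.9 ± 9.71 in line 15 (n = 11). The SDs of lines 24, 19 and 18 reach into the neighbouring line. In the control samples Ogn ran from 5.42 to 135 CPM with a median of 25.4, and in the KO samples from 43.2 to 1331 with a median of 147. Of the 21 KO samples, 11 lay above every control sample, and the groups overlapped. Dmp1 overlapped least between the groups, with 0 to 4.56 CPM in control samples (median 1.40) and 4.30 to 25.2 in KO samples (median 11.5). 20 of 21 KO samples were above every control sample.

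Omd ranged from 0.34 to 7.01 CPM in control samples and from 0.81 to 36.2 in KO samples, with 5 of 21 KO samples above all controls. Aspn ranged from 0.16 to 85.6 CPM in control samples and from 7.24 to 82.3 in KO samples, so the KO range lay inside the control range. Prelp was highest in line 24, where it averaged 24.8 ± 8.26 CPM (SD, n = 10), against 2.83 ± 2.97 in line 15 (n = 11), 2.19 ± 2.35 in line 18 (n = 10) and 0.86 ± 0.66 in line 19 (n = 11). All 10 KO samples above every control sample in Prelp were those of line 24. Fmod had 7 UMIs in the line cells of all 4 lines.

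The KO against control differences in line cells, as log2 fold changes with day as a term, were 2.42 for Ogn (SE 0.38), 3.06 for Dmp1 (SE 0.24), 1.69 for Omd (SE 0.35), 1.46 for Aspn (SE 0.36) and 1.08 for Bgn (SE 0.16). Dcn was at -0.54 (SE 0.30) and turned to 0.33 without line 18. Lum was at -0.26 (SE 0.36) and turned to 0.22 without line 19. Prelp was at 2.37 (SE 0.61) and turned to -1.21 without line 24. With 1 line left out, Ogn ran from 1.56 (without line 15) to 3.21 (without line 19), and was at 1.78 without line 24 and 3.19 without line 18. Aspn ran from 0.58 (without line 15) to 2.58 (without line 18), and Omd from 0.79 to 3.05 without the same lines. Across all genes, 49.0% passed an edgeR adjusted p of 0.05 in this contrast, and nothing is read from the 8 genes against that share. In the mixed libraries alone the difference was 1.14 for Ogn (SE 0.65), 2.65 for Dmp1 (SE 0.31) and 0.51 for Omd (SE 0.55). The SEs over all samples come from a fit with no term for line. With 1 sum per line the values were 3.18 for Ogn (SE 0.99), 3.04 for Dmp1 (SE 0.36) and 2.21 for Omd (SE 0.72). Aspn was then at 0.99 (SE 0.69), Bgn at 0.89 (SE 0.25) and Prelp at 2.26 (SE 1.39). Dcn was at -0.68 (SE 0.56) and Lum at -0.44 (SE 0.39).

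The day courses of these genes were not the same in the 4 lines. Ogn in line 24 was at 1293 and 1331 CPM in the 2 day 0 samples, at 256 and 174 on day 6, at 346, 274 and 208 on day 10, and at 147, 181 and 75.4 on day 16. In line 19 it was at 341 and 384 CPM on day 0, at 89.0, 94.5 and 76.2 on day 6, at 105, 89.1 and 60.7 on day 10, and at 53.1, 43.2 and 50.3 on day 16. In both KO lines the day 0 samples were the highest, and no later sample reached them. In line 18 Ogn was at 25.4 CPM on day 0, at 31.4, 9.01 and 13.6 on day 6, at 35.0, 54.5 and 81.8 on day 10, and at 88.1, 88.6 and 135 on day 16. In line 15 it was at 23.0 and 29.4 CPM on day 0, at 8.0, 5.42 and 10.9 on day 6, at 19.3, 13.9 and 32.7 on day 10, and at 24.1, 18.4 and 33.6 on day 16. Every day 16 sample of these control lines was above every day 6 sample of its own line. The order of the line means on day 6 was 24, 19, 18, 15, whereas on day 16 line 18 (104 CPM) stood between line 24 (135) and line 19 (48.9). The day 16 samples of lines 24 and 18 overlapped.

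**Figure D2:**
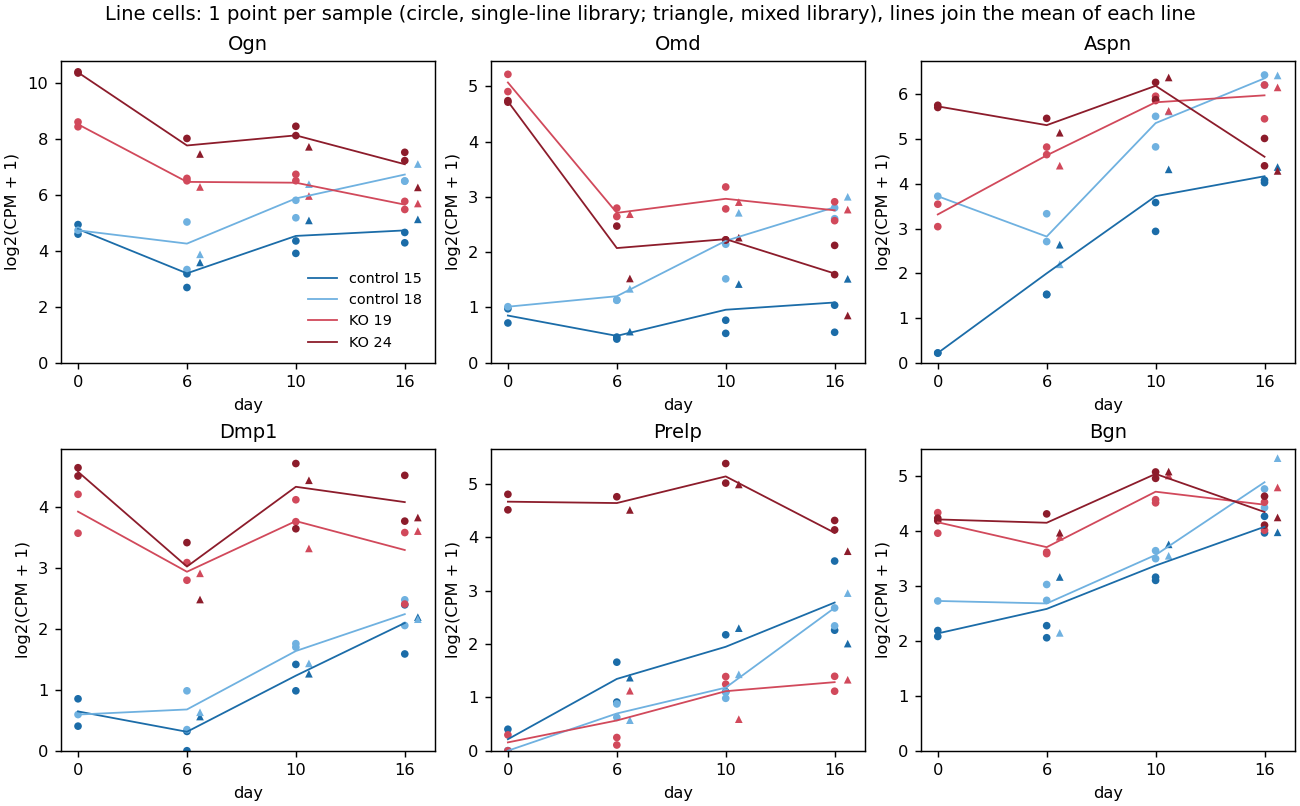
Level in line cells, log2(CPM + 1), by day (categories, not to scale in time) for 6 genes. Points are single hashtag samples (circles, single-line libraries; triangles, mixed libraries, shifted to the right), and the lines join the mean of each line: Ogn and Omd are highest on day 0 in lines 19 and 24, and the mean of Aspn is higher on day 16 than on day 6 in lines 15, 18 and 19.

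From day 0 to day 6, 3 of the 8 genes tested in line cells fell, beside 25.6% of all 13075 genes that fell and 23.7% that rose, a share of the members not far above that of all genes. Fmod was too low to be tested in line cells. The fit held line and library kind as blocks. Ogn fell by 1.99 on the log2 scale (SE 0.38, edgeR adjusted p 5.403e-05) and Omd fell by 2.50 (SE 0.32, edgeR adjusted p 6.553e-08). Dmp1 fell by 1.16 (SE 0.36, edgeR adjusted p 0.007243), and without line 24 its value was -0.92 (edgeR adjusted p 0.1075). On day 0 the mean of Ogn was 363 CPM in line 19 and 1312 in line 24, against 26.2 in line 15 and 25.4 in line 18. These day 0 samples were part of the KO against control difference by which Ogn and Dmp1 were chosen. The falls of Ogn and Dmp1, and the count of 3 that holds them, are thus not independent of that choice. Aspn was at 0.02 (SE 0.49), with no steady direction when single lines were left out. Dcn, Lum, Bgn and Prelp did not pass either. Without line 24, Aspn (1.13, edgeR adjusted p 0.04535) and Prelp (2.39, 0.0288) passed, as did Dcn with the unnamed cluster 7 added (1.31, 0.01361). The line cells of the 4 lines and days lay in different clusters. In line 24, cluster 15 held 30.2% of the line cells, 84.0% of them of day 0, with Ogn at 1286 CPM. In lines 15, 18 and 19 the cluster with most day 0 cells was cluster 8, of which 96.0%, 73.9% and 96.2% were of day 0. Cluster 6 held 46.0% of the line cells of line 24, and cluster 11 held 34.1% of those of line 19.

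Omd, which binds hydroxyapatite and collagen, was given by line. Its mean went from 32.6 CPM on day 0 to 5.54 on day 6 in line 19, and from 25.5 to 3.21 in line 24. In the control lines it went from 0.80 to 0.40 in line 15 and from 1.02 to 1.30 in line 18. Whether the fall from day 0 differs between groups was not tested. Dmp1 went from 14.2 to 6.65 CPM in line 19 and from 22.8 to 7.12 in line 24, while lines 15 and 18 stayed under 1 CPM on both days.

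From day 6 to day 16, 7 of the 8 genes rose, beside 22.2% of all genes that rose and 18.4% that fell. Aspn rose by 1.88 on the log2 scale (SE 0.37, edgeR adjusted p 0.0001687), Bgn by 1.38 (SE 0.21, edgeR adjusted p 4.922e-06) and Dmp1 by 1.46 (SE 0.30, edgeR adjusted p 0.000248). Prelp rose by 1.34 (edgeR adjusted p 0.006949), Lum by 1.34 (0.01018), Dcn by 0.76 (0.003438) and Omd by 0.75 (0.03107). Ogn, at 0.62 (SE 0.33, edgeR adjusted p 0.1369), did not pass and turned to -0.12 without line 18. It passed without line 19 (1.20, edgeR adjusted p 0.01755), without line 24 (1.03, 0.02295) and with no count filter (0.0446). Without line 18 Dcn (edgeR adjusted p 0.1288), Omd (0.9122) and Prelp (0.2331) no longer passed either, nor did Lum without line 15 (0.1399) or Omd without line 15 (0.08304). Omd was also lost with the other hashtag call (0.06443), in the single-line libraries alone (0.1055) and with cluster 7 added (0.06154), and Dcn with cluster 7 added (0.1079). With 1 line left out, Aspn ran from 1.17 (without line 18) to 2.42 (without line 24), and Dmp1 from 1.09 (without line 15) to 2.31 (without line 19). The summed line cell levels of Dcn and Lum were below those of macrophages, as given above, so their rise is not read as expression by line cells. Bgn in tumour line cells was also below macrophages in the line 18 (12.7 against 15.5 CPM), line 19 (17.6 against 19.3) and second mixed library (12.9 against 19.7), and above them in the line 15 (8.69 against 6.02), line 24 (27.0 against 11.7) and first mixed library (22.6 against 17.5). Its rise is therefore not read as expression by line cells either.

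Aspn was followed by sample. In line 15 it was at 0.16 and 0.16 CPM on day 0, at 1.87, 1.89 and 5.23 on day 6, at 10.97, 6.66 and 19.0 on day 10 and at 15.9, 15.3 and 19.8 on day 16. In line 18 it was at 12.2 CPM on day 0, at 9.06, 5.54 and 3.59 on day 6, at 27.4, 44.6 and 48.1 on day 10, and at 73.1, 85.6 and 84.9 on day 16. No day 16 sample of lines 15 and 18 overlapped day 6. In line 19 it was at 7.24 and 10.7 CPM on day 0, at 24.2, 27.3 and 20.2 on day 6 and at 73.1, 42.9 and 70.4 on day 16. In line 24 it was at 53.1 and 51.3 CPM on day 0, at 43.2 and 34.3 on day 6, at 76.2, 58.1 and 82.3 on day 10, and at 20.2, 31.4 and 18.5 on day 16. The day 16 samples were the lowest of line 24, whereas in lines 15, 18 and 19 every day 16 sample was above every day 6 sample.

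The day 16 against day 6 change was also set side by side in the 2 groups, in a comparison added after these courses were seen. It is given as a description with no test, since the genes were chosen by KO against control values in the same cells. As KO minus control, the log2 difference in the change was -2.91 for Ogn (SE 0.31), -2.59 for Aspn (SE 0.43), -2.33 for Dmp1 (SE 0.51), -2.27 for Prelp (SE 0.58), -2.03 for Omd (SE 0.30) and -1.41 for Bgn (SE 0.26). Lum was at -1.59 (SE 0.87), and ran from -3.57 (without line 18) to -0.47 (without line 15). Dcn was at -0.66 (SE 0.39). With 1 line left out, Ogn ran from -3.25 (without line 15) to -2.36 (without line 18) and Aspn from -4.01 (without line 19) to -1.83 (without line 18). Prelp ran from -3.03 (without line 15) to -0.85 (without line 24), Omd from -2.56 (without line 19) to -1.32 (without line 18) and Dmp1 from -3.07 (without line 18) to -1.63 (without line 19). The median over the 8 genes was -2.15, and over all 12882 genes 0.01. Nothing is read from the one beside the other, because the genes were chosen by KO against control values. Dcn, Lum and Bgn, which are among the 8, are not read as expression by line cells.

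Other matrix genes moved with day as well. From day 6 to day 16, beside 22.2% of all genes that rose and 18.4% that fell, all 11 fibrillar and type VI collagen genes tested rose, with Col2a1 at 3.07, Col6a3 at 2.14 and Col3a1 at 1.89 on the log2 scale. Over all days Col3a1 averaged 208 CPM in KO and 127 in control line cells, against 37.9 and 22.9 in macrophages, and Col6a3 averaged 68.6 and 58.6 CPM, against 14.2 and 11.3. Col2a1 was near 0 in control line cells (0.02 CPM), with a KO median of 0.05. Fibroblast markers summed to 28.0 to 185 CPM in control and 39.4 to 118 CPM in KO line cells, and their part in these values was not tested. 13 of 20 enzymes that build or modify the sugar chains rose and none fell, among them Ust, a sulfotransferase, at 2.81 and Csgalnact1, which starts chondroitin chains, at 1.72. 3 of 6 other leucine-rich proteoglycans rose, Podn most, at 1.47, and 6 of 10 mineralization genes rose, with Enpp1, which makes pyrophosphate, at 1.20 and Spp1, an acidic bone matrix protein, at 1.08. Of 12 genes of proteases or of proteins that aid them, 5 rose (Htra1 at 1.02) and 1 fell (Pcolce2, which aids procollagen cleavage, at -0.64). Of 16 receptors and growth factors 6 rose and none fell, and of 11 genes beside the members 4 rose and 2 fell. The group difference in this change, beside 8.08% of all genes lower and 8.91% higher in KO by edgeR, was lower for 6 of the 11 collagens (Col1a1 at -2.19) and 3 of the 20 chain enzymes (Csgalnact1 at -2.61), with none higher. Of the 6 other leucine-rich proteoglycans 2 were lower (Optc at -2.49) and none higher. Of 11 genes beside the members, 5 were lower (Sparcl1, a matrix protein gene near Dmp1, at -3.06) and 1 higher. Of 16 receptors and growth factors, 4 were higher (Cd44, a hyaluronan receptor, at 0.61) and 2 lower (Tgfb3 at -1.56). Of the 12 genes of proteases or of proteins that aid them, 1 was higher and 3 lower. Of 10 mineralization genes 1 was higher (Fam20c at 0.43) and 1 lower (Spp1 at -0.84). These lists were chosen with earlier results of these data known.

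From day 0 to day 6 the collagens went another way than Ogn and Omd: 7 of 11 rose, such as Col6a2 at 2.13 and Col1a1 at 2.06, and 2 fell, with Col11a1 at -2.0. Of the mineralization genes 3 rose and 4 fell, with Bglap2, an osteocalcin gene, at -2.42. Of the 20 chain enzymes 5 rose and 7 fell, near the shares of all genes (23.7% rose and 25.6% fell).

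Over the 16 line-by-day means of the line cells, the genes with levels most like Ogn among 7993 were Herc1 (Pearson r 0.96), Txnip (0.96), Slc45a4 (0.96), Nenf (0.95) and Ltbp3 (0.94). For Dmp1 they were Cbr2 (0.96), Frmd6 (0.95), S100a16 (0.95), Mecom (0.94) and Serpinf1 (0.94). Among the members Ogn was closest to Dmp1 (0.87) and Omd (0.84), and its r with Aspn, from the same stretch of chromosome, was 0.57. The points share lines and libraries, and Ogn and Dmp1 were both chosen by their KO against control differences, so these are descriptions.

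Ogn was also counted in cells that are not line cells, and there it followed the library. In macrophages of line 24 tumours it was at 186, 146, 141, 167 and 138 CPM in the line 24 library, and at 25.4, 11.2 and 8.17 in the mixed library. In macrophages of line 19 tumours it was at 56.6, 54.8, 23.4, 41.5, 27.3 and 50.9 CPM in the line 19 library, and at 16.1, 1.30 and 5.79 in the mixed library. The single-line and mixed values did not overlap in either line. Macrophages of the control lines held 0 to 14.0 CPM in any library. The KO against control difference in macrophages was 3.75 on the log2 scale over all tumours (SE 0.47), in a contrast where 38.0% of all genes passed and which was in view when the genes were chosen, and 0.16 (SE 0.41) in the mixed libraries alone.

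The KO against control difference was then set side by side in the 2 library kinds, as a description with no test, since that difference was in view when the genes were chosen. In macrophages that of Ogn was lower in mixed than in single-line libraries by a log2 value of -4.49 (SE 0.46), and ran from -6.12 without line 18 to -3.70 without line 24. It was -4.25 in macrophage cluster 13 alone. Line 24 had 108 cells of that cluster over all its samples. The minimum of cells per sample was applied to all macrophages, not to this cluster. Across all 8284 genes 0.121% passed an edgeR adjusted p of 0.05 in this fit, and nothing is read from that share. Macrophage make-up differed between lines as well: cluster 18 held 96.9% of them in line 24 and 46.0% in line 18. Dcn was at 0.73, from -0.53 without line 24 to 2.21 without line 19. Bgn was at -0.65, from -1.19 without line 18 to -0.19 without line 19. The other 6 genes were too low to be fitted. In line cells, where 1.94% of 12709 genes passed, Ogn was at -1.13 (SE 0.48) and Omd at -0.996 (SE 0.38). Lum was at 1.64 (SE 0.73) and Dcn at 1.20 (SE 0.42). Aspn was at -0.39, Dmp1 at -0.27, Bgn at -0.12 and Prelp at -0.10. Omd ran from -1.60 without line 18 to -0.80 without line 15. Dcn there ran from 0.23 without line 18 to 2.26 without line 19.

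The ratio of Ogn to Aspn counts was then compared within each library. In the line 24 library it was 25.2 in day 0 line cells and 4.98 in the line cells of tumours, and it was 23.8 in macrophages and 25.6 in T cells. Dendritic cells of that library lay between the line cell values at 12.1 (from 10 Aspn UMIs), as did cells of unnamed clusters at 15.6. In the line 19 library it was 37.3 in day 0 line cells, 1.71 in tumour line cells, 6.58 in macrophages and 4.22 in T cells. In the mixed libraries, which hold no day 0 cells, the ratio was 1.43 in line cells and 1.20 in macrophages of the first, and 2.79 and 2.55 in the second. Other ratios gave another order in the line 24 library. Ogn per Omd was 51.5 in day 0 line cells, 72.2 in tumour line cells, 98.4 in macrophages (from 7 Omd UMIs) and 85.2 in T cells (from 6). Ogn per Bgn was 75.3, 9.43, 12.3 and 17.6 in the same parts. By both of these, macrophages and T cells lay nearer to tumour line cells than to day 0 line cells. Bgn was at 3778 CPM in fibroblasts of that library, against 17.4 in day 0 and 27.0 in tumour line cells. The part of fibroblast RNA in these ratios was not tested. Cells of day 0 held 72.7% of the Ogn counts among the singlets of the line 24 library, in 22.3% of its cells, and 37.7% in the line 19 library, in 8.45% of its cells. Ogn in macrophages of the line 24 library stood at 144 CPM, 23.3% of the level over all cells of that library (618 CPM). T cells there stood at 193 CPM and tumour line cells at 255 CPM. In the second mixed library the levels were 11.6 CPM in macrophages, 18.6 in T cells and 84.1 in line cells. How much of the Ogn counted in macrophages and T cells is RNA of other cells in the same library was not tested.

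**Figure D3:**
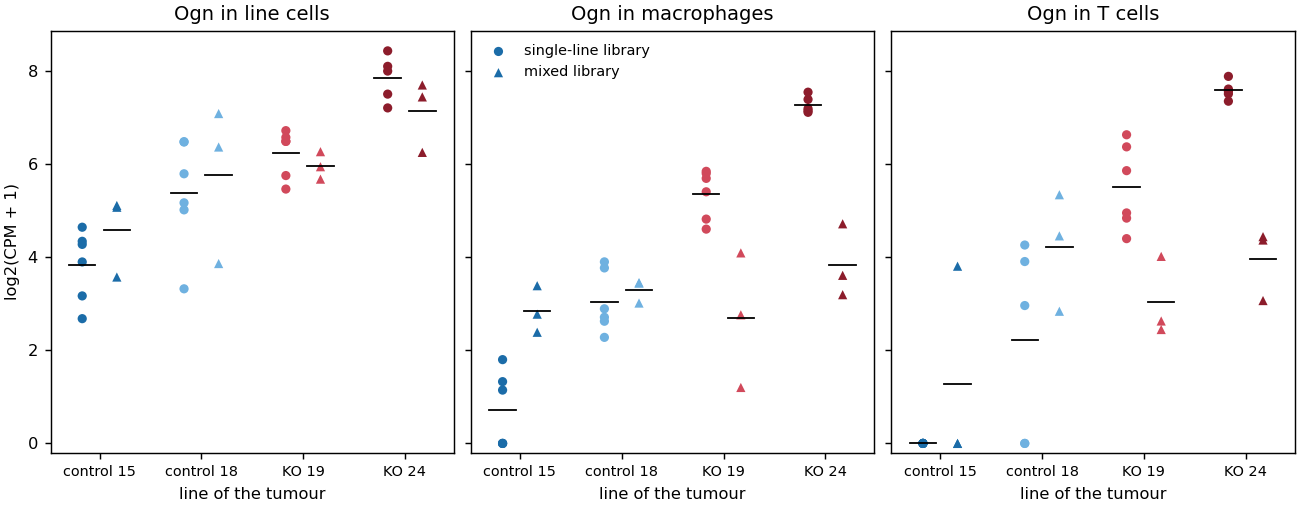
Ogn level, log2(CPM + 1), in line cells, macrophages and T cells of tumours of days 6 to 16, by line. Points are tumours, circles in single-line and triangles in mixed libraries, and black bars are the mean of the plotted values: in macrophages of lines 19 and 24 all circles lie above all triangles.

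**Figure D4:**
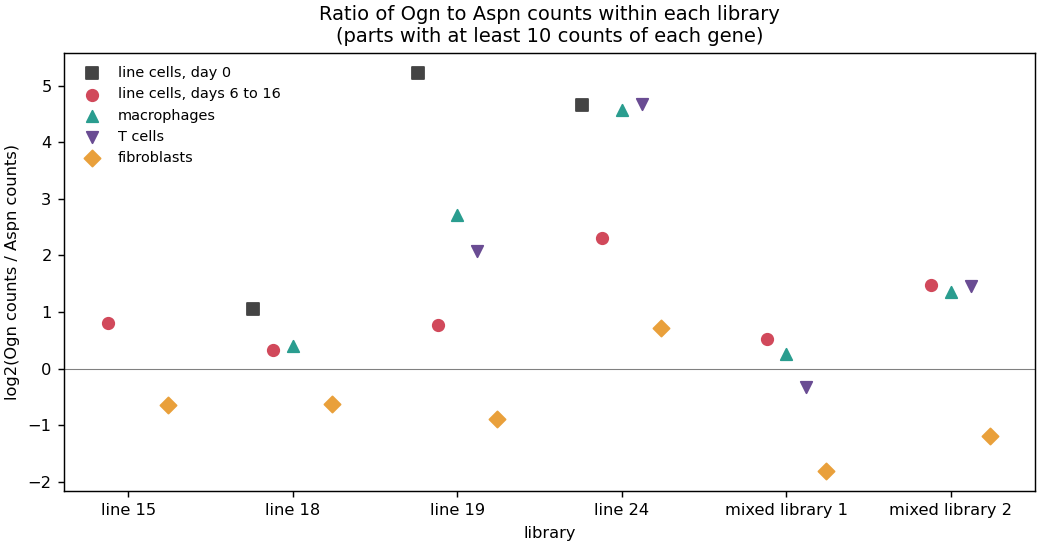
log2 of the ratio of Ogn to Aspn counts (vertical) in each library (horizontal). Shown are day 0 and tumour line cells, macrophages, T cells and fibroblasts, where the part had at least 10 counts of each gene. In the line 24 library macrophages (23.8) and T cells (25.6) lie by the day 0 line cells (25.2). In the line 19 library macrophages (6.58) and T cells (4.22) lie nearer to tumour line cells (1.71) than to day 0 line cells (37.3). In the mixed libraries macrophages lie near the line cells.

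The share of cells with an Ogn UMI was compared at 1 depth. Thinned to 1000 UMIs a cell, 56.4% of day 0 line cells of line 24 held an Ogn UMI (82.8% unthinned, median 6244 UMIs, 56 shallower cells left out), and 22.02% of its tumour line cells (55.0% unthinned, median 4762 UMIs, 155 left out). In line 19 the shares were 26.4% on day 0 (71.9% unthinned, median 11280 UMIs, 8 left out) and 8.35% in tumours (30.7% unthinned, median 10225.5 UMIs, 192 left out). Macrophages of the line 24 library held one in 14.3% of cells (26.5% unthinned, exact 95% binomial interval 24.6% to 28.4%, median 1953 UMIs, 271 left out), and those of line 24 tumours in the mixed library in 1.07% (2.43% unthinned, median 1674 UMIs, 247 left out). The intervals cover counting error only. The tumour line cells of lines 15 (1.76% thinned, 101 left out) and 18 (5.29%, 511 left out) were below the macrophages of the line 24 library, so line cells are set against macrophages of their own library only. In line 19 that was 8.35% of tumour line cells against 4.82% of macrophages (8.62% unthinned, median 1601.5 UMIs, 382 left out).

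In fibroblasts, the class that holds most Dcn, Lum and Bgn, KO against control was tested with day as a term. This contrast was not the one by which the genes were chosen, but they were chosen with earlier results of these data known. Of the 6 genes tested, 3 were higher and 2 lower in KO, beside 10.5% of 6056 genes higher and 9.79% lower. Ogn, counted among the 3, was itself chosen by KO against control values in other cells of these libraries. Dcn fell by 0.65 on the log2 scale (SE 0.10, edgeR adjusted p 7.536e-06) and was called in each alternative run. Its mean was 5008 ± 857 CPM in line 15 (SD, n = 9), 4578 ± 987 in line 18 (n = 8), 3148 ± 567 in line 19 (n = 9) and 2718 ± 375 in line 24 (n = 7). The control tumours ran from 3053 to 6374 CPM with a median of 4684 and the KO tumours from 1987 to 3829 with a median of 2804. 10 of 16 KO tumours were below every control tumour, and the groups overlapped at the edges.

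Lum fell by 0.61 (SE 0.16, edgeR adjusted p 0.005723), with means of 1081, 1011, 677 and 629 CPM in lines 15, 18, 19 and 24. By day the means of control and KO tumours were 760 and 770 CPM on day 6, 1127 and 626 on day 10 and 1298 and 577 on day 16, so the means lay close on day 6. It did not pass without line 15 (edgeR adjusted p 0.06322), without line 19 (0.05111), in the mixed libraries alone (0.4821) or with 1 sum per line (0.05442). Bgn was higher by 0.30 (SE 0.09, edgeR adjusted p 0.009999), and did not pass without line 18 (0.1514), without line 19 (0.1559) or with 1 sum per line (0.3605). Bgn averaged 2695 CPM in control and 3499 in KO tumours on day 6, 3177 and 4177 on day 10, and 4194 and 4139 on day 16, when it was not higher in KO. Bgn and Dcn are close relatives that bind collagen and TGF-beta. Dcn was lower in KO on each of the 3 days, with means of 4732 and 3130, 5014 and 2880, and 4644 and 2885 CPM. Prelp was at -0.05 (SE 0.23).

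Aspn was higher in KO fibroblasts by 2.31 (SE 0.30, edgeR adjusted p 2.899e-07) and was called in each alternative run, from 1.54 without line 15 to 3.24 without line 18. It was at 0 to 81.4 CPM in control tumours (median 13.7) and at 8.65 to 244 CPM in KO tumours (median 79.0), and 8 of 16 KO tumours were above every control tumour. In line 19 it was at 21.5, 8.65 and 33.3 CPM on day 6, and at 81.8, 149 and 244 on day 16. In line 24 it was at 71.9 and 31.8 CPM on day 6, at 76.1, 90.0 and 166 on day 10, and at 49.1 and 23.2 on day 16. The day 16 tumours of line 19 were thus above those of day 6, while those of line 24 overlapped day 6 and lay lower on average. Fibroblast Aspn in both mixed libraries (57.4 and 55.0 CPM) was above that of macrophages there (6.42 and 4.54 CPM). The value was 2.44 when each library lost its cells of highest Scrublet score, as many as the doublets within a sample expected from its hashtag doublets (950 in the line 19 and 2085 in the line 24 library). Line cells of the same tumours also hold Aspn, and the part of cells that join a line cell and a fibroblast was not tested beyond that.

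Ogn was higher in KO fibroblasts by 2.48 (SE 0.41), from 1.81 without line 15 to 3.31 without line 18 and 3.16 without line 19. Ogn was chosen by its KO against control values in these data, so this is a description with no test. Its fibroblast level was below the macrophage level in the line 19 library (40.4 against 47.7 CPM) and in the line 24 library (115 against 144 CPM), so it is not read as expression there. In the mixed libraries it was at 16.4 and 24.1 CPM, against 7.68 and 11.6 in macrophages, and the difference there was 2.05. Fibroblasts of the groups differed in other ways: the 15 fibroblast markers summed to 894 to 1923 CPM in control tumours (median 1363) and 1548 to 3714 in KO tumours (median 2417), with none at 0. The 11 endothelial markers in them summed to 45.1 to 137 CPM in control (median 86.2) and 75.9 to 231 in KO tumours (median 158), with 2 of the 11 at 0 in each group. The 15 macrophage markers summed to 211 to 1785 CPM (median 378) and 196 to 1238 CPM (median 404). The part of these in the values above was not tested.

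**Figure D5:**
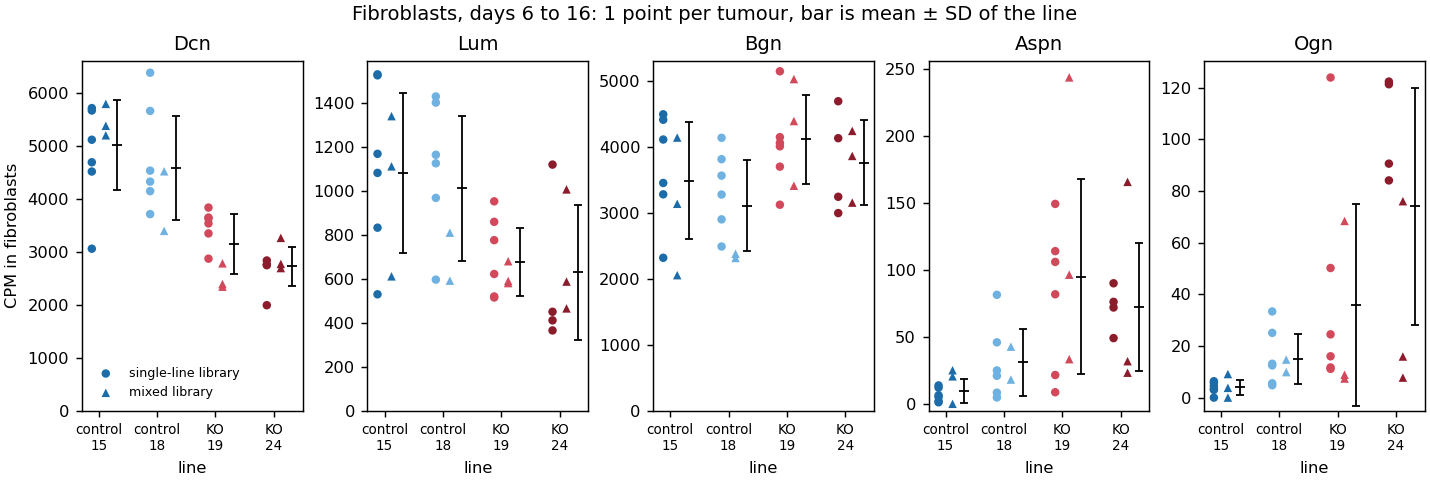
Level in fibroblasts (CPM, linear axis from 0) of 5 genes by line, tumours of days 6 to 16. Points are tumours (circles, single-line; triangles, mixed libraries) and black bars are the mean ± SD of the line: Dcn is lower in lines 19 and 24, and Aspn higher.

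The gene lists in fibroblasts are set beside 10.5% of all genes higher and 9.79% lower in KO. Of 11 genes of proteases that cut these proteins or their partners, or of proteins that aid them, 6 were higher and 2 lower. Of these 8, the largest differences were those of 3 higher genes. Mmp13, a collagenase, was at 2.95, Adamts5, an aggrecanase, at 1.43 and Pcolce2, which aids procollagen cleavage, at 1.24. Enpp1 (2.08) and Spp1 (0.98) were higher among 5 mineralization genes tested, and 2 of 10 collagens were, Col3a1 at 0.95 and Col5a2 at 0.34. Of 12 chain enzymes 2 were higher (Dsel at 0.63 and Csgalnact1 at 0.47) and 1 lower, Xylt1, which starts the sugar chains of proteoglycans, at -1.31. Podn, another member of the wider family, was higher at 0.90.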

How the data were processed

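Raw UMI counts per gene and barcode were deposited by the authors for 6 libraries and used as counts. Cell Ranger 6.0.0 and mm10 are named in the submitters' processing notes. The sources used here give no other settings. Cells were kept if they had 300 genes or more and no more than 15% of mitochondrial counts. HTODemux (Seurat 5.3.0) assigned cells to hashtags, and hashtag doublets and negatives were left out, as were 2 of the 47 hashtags in the sheet. Doublets within a sample remain, and Scrublet's threshold marked none in lines 19 and 24. scanpy 1.11.5 gave 24 clusters (2000 variable genes without the 9 members, 30 principal components, 15 neighbours, resolution 1.0), named by at least 3 markers. Cluster 7 stayed unnamed and held 16.5% of line 24 singlets, against 0.41% to 0.72% in the other lines. Counts were summed per hashtag sample and class (at least 20 cells) and tested with edgeR 4.0.16 (filterByExpr, TMM, glmQLFTest), adjusted by Benjamini-Hochberg over all genes, threshold 0.05. Alternatives covered DESeq2 1.42.0, size factors, filters, hashtag calls, doublets, libraries and lines left out. In all of them the minimum of 20 cells was applied to the cell numbers of the main setting. Replicates of a line and day differed beyond sampling noise (chi-square per degree of freedom 1.33 to 33.8 over 37 pairs), so none was counted once for another. Scripts were tested on simulated data. The members, the lists and the rules for named genes (the 9 members, up to 3 genes a list by fold change among those called, and the 5 most alike genes) were chosen with earlier results of these data known. CPM values are unscaled: a gene's counts divided by all counts of the class in that sample, times 1e6.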

Additional observations from a re-analysis of the deposited data

Results flagged for a closer look

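In 70 groups of 4 to 6 samples, a sample stood far from the others in 7. Each group pooled days 6, 10 and 16, between which levels changed, so no chance rate is set beside the 7. The groups were the tumours of 1 line in its single-line library, and the mixed library values of the same line are given beside each. Line 15, day 16, letter A held 3 of these in line cells. Dcn was at 7.07 CPM (others of that library 1.05 to 1.64, mixed 4.34 to 5.18), Lum at 8.33 CPM (0.15 to 0.85, mixed 0.32 to 1.78) and Prelp at 10.8 CPM (0.88 to 3.79, mixed 1.58 to 3.92). Line 24, day 16, letter A had Lum in line cells at 4.54 CPM, from 9 UMIs (others of that library 0.20 to 0.75, mixed 1.67 to 3.76). In fibroblasts of line 24, Dcn was at 1987 CPM on day 10, letter B (others 2742 to 2831, mixed 2688 to 3258). Lum there was at 1119 CPM on day 6, letter A (others 365 to 449), and the mixed tumour of that day was near it at 1006 CPM (the other two 465 and 587). Line 19 had fibroblast Ogn at 124 CPM on day 10, letter B (others 11.1 to 50.2, mixed 7.38 to 68.4).

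The KO against control contrast of Ogn in macrophages differed between library kinds (log2 -4.49), a contrast that was in view when Ogn was chosen, so this too is a description. The day 16 against day 6 change in line cells, as KO minus control, was at -2.91 for Ogn, -2.59 for Aspn and -1.405 for Bgn. It was at -2.03 for Omd, -2.27 for Prelp, -2.33 for Dmp1, -1.59 for Lum and -0.66 for Dcn. Bgn, Lum and Dcn are not read as expression by line cells. That second comparison was added after the day courses of these samples were seen, on genes chosen by KO against control values in the same cells, so it restates those courses and is a description, not independent evidence. Its size moved with the line left out, for example for Prelp (-0.85 without line 24).

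The WT tumours of the second mixed library enter no comparison. The 9 genes were looked at in line cells, fibroblasts and macrophages, with 1 WT tumour a day against 5 or 6 control tumours. Of all these measures, 3 were above every control tumour of the same day on each of the 3 days, and 1 was below. They are the extremes of that search, and no share over all genes is set beside them. Ogn in line cells was at 61.9, 100.3 and 192 CPM on days 6, 10 and 16, against 5.42 to 31.4, 13.9 to 81.8 and 18.4 to 135 in control tumours. The KO tumours held 76.2 to 256, 60.7 to 346 and 43.2 to 181 CPM on these days. Aspn in fibroblasts was at 28.3, 80.4 and 164 CPM, against 0 to 18.1, 1.85 to 42.7 and 12.1 to 81.4 in control tumours. It lay inside the KO range on each day (8.65 to 71.9, 76.1 to 166 and 23.2 to 244 CPM). Fmod in fibroblasts was at 7.07, 41.6 and 9.77 CPM, from 5, 15 and 4 UMIs, against highest control values of 1.65, 5.35 and 9.58 CPM, so that of day 16 was near a tie. Lum in fibroblasts was below, at 372, 663 and 902 CPM, against lowest control values of 529, 809 and 968 CPM.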

How the results depend on the processing

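No paired analysis was possible because the letters of the hashtag samples carry no pairing across lines; in the mixed libraries, where control and KO tumours share a library, the fit of KO against control held library and day as terms, and its counts are those for the mixed libraries alone. The number of genes past the threshold stayed within 1.5 times the reported one in 67 alternatives and moved further in 30. Day 16 against day 6 called 5311 genes, 3274 in the single-line libraries alone and 3179 to 5849 with a line left out. Its difference between groups called 2189, and 577 to 2338 with a line left out (577 without line 18, 1211 without line 19). The library-kind difference in line cells called 246, 497 with DESeq2, 685 with the other hashtag call and 145 to 468 with a line left out. In macrophages it called 10, 21 with DESeq2, 106 with no count filter, 19 with the other hashtag call, 2 to 28 with a line left out, 5 in cluster 18 and 0 in cluster 13 alone (edgeR, 149 at an unadjusted p under 0.05). Fibroblasts called 1231, 454 in the mixed libraries alone, 565 with 1 sum per line and 660 to 1289 with a line left out. KO against control in line cells called 6192, 536 in the mixed libraries and 0 with 1 sum per line (edgeR, 1189 at an unadjusted p under 0.05). In macrophages it called 2908, 422 in the mixed libraries, 913 with 1 sum per line, 378 in cluster 13, 1649 in cluster 18 and 1033 to 3048 with a line left out. The cluster settings and those with cluster 7 were chosen after seeing the data.

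Single genes changed sign in 23 settings, none of them in a tested value that had passed; the cause was not tested. Day 6 against day 0, lowest to highest with a line left out: Aspn -0.74 to 1.13 (-0.24 without line 15, -0.74 without line 19) and Prelp -0.23 to 2.39; with cluster 7 Aspn -0.031 and Bgn 0.027, with the other hashtag call Bgn 0.047. Day 16 against day 6: Ogn -0.12 (without line 18) to 1.20. Library kind in line cells: Bgn -0.35 to 0.057, Prelp -0.48 to 0.26 (0.018 with DESeq2) and Dmp1 -0.61 to 0.0036. In macrophages: Dcn -0.53 to 2.21. KO against control in line cells: Dcn -1.16 to 0.33 (0.037 in the mixed libraries), Lum -0.71 to 0.22 (0.505 in the mixed libraries) and Prelp -1.21 to 3.56. In macrophages: Dcn -0.81 to 0.49 and Bgn -0.082 to 0.81 (-0.19 in the mixed libraries). Fibroblast counts rest on 129107 to 1470414 UMIs a tumour, which limits Fmod, Omd and Dmp1 there.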
